A study of Mus musculus with 30 samples.

Results

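The Rab GTPases are a family of small membrane-bound switches, and 59 protein-coding mouse genes of the family were followed here among 46078 genes counted in 30 microglia libraries. A gene was a member if its GENCODE M21 symbol was Rab, a number and at most 1 further letter, so that interactors such as Rab11fip1 or Rab5if stayed out. Rab44 was kept because it matches this pattern, although its number lies past the Rab1a to Rab43 range. Of the 59 members, 47 had enough counts to be tested and 12 did not.

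Each Rab is loaded with GTP by an exchange factor, recruits effectors such as tethers and motor adaptors while it is GTP-bound, and is switched off by a GTPase-activating protein. GDP-bound Rabs are taken off membranes and carried through the cytosol by GDP dissociation inhibitors. Different Rabs mark different compartments, and in macrophages such as microglia they are best known for steering phagosomes, endosomes, lysosomes and secretory granules.

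Microglia, the macrophages that reside in the central nervous system, were sorted from C57BL/6 mice in 8 groups. KO mice were Atg7fl/fl Cx3cr1CreERT, so that tamoxifen could delete Atg7, an enzyme of autophagosome formation, in cells that express Cx3cr1. Their controls, WT, were Atg7wt/wt Cx3cr1CreERT2 and were given tamoxifen as well (4 mg per dose, 3 doses, 48 h between doses). Old mice carry the status ATG7_WT in the labels, which give age only as young or old and say nothing of a Cre allele in old mice. The labels list the same tamoxifen doses for the old groups as for KO and WT. Mice were naive or had experimental autoimmune encephalomyelitis (EAE), a neuroinflammatory disease induced with recombinant mouse MOG (residues 1 to 125) and pertussis toxin at least 18 days after tamoxifen. There were 4 naive KO, 4 naive old, 4 naive WT, 4 day 21 KO, 3 day 21 WT, 4 day 35 KO, 3 day 35 old and 4 day 35 WT libraries. Sorted cells were live, CD11b+, CD45 intermediate and Ly6G-, and/or eYFP+. The labels say that lysates of female and male mice were joined in equal parts. Headers of all naive old count columns hold a single number, and those of all naive WT and day 35 WT columns hold a pair. It is therefore uncertain that every library was such a pool. The labels do not say whether the libraries of a group came from separate sorts, so the p-values measure the spread between these libraries, which may be partly technical.

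Total counts ran from 4712803 to 11034565 per library, with a median of 6769302. Atg7 itself had 31.7, 31, 31.7 and 36.9 CPM (a count scaled to a common library size) in day 21 KO libraries. Day 21 WT libraries had 19.8, 25.3 and 24.6 CPM. In naive mice it had 16.8, 20.7, 31.8 and 11.4 CPM in KO libraries, against 26.6, 27, 40.1 and 32.8 CPM in WT libraries. At day 35 it had 33.3, 32.5, 30.3 and 33.8 CPM in KO libraries, against 23.7, 21.3, 23.8 and 21.4 CPM in WT libraries. A count over a whole gene does not reveal that an exon is missing. The labels do not give the deleted exon, so these values do not check the labels. One day 35 WT library, number 3, has a WT title and a KO status in the labels and was kept as WT. All 10 homeostatic microglia markers were detected in every group, with summed levels between 5750 and 23700 CPM. Markers of neutrophils, which a Ly6G- gate should remove, differed widely. Their 13 genes summed to 6980 to 13700 CPM in naive old libraries and 1540 to 16400 CPM in naive WT libraries, to 31800 CPM in day 35 old library 1, and to 4.54 to 39.3 CPM in day 35 WT libraries. Naive KO library 4 stood apart from the other naive KO libraries, with 122.3 CPM of neutrophil markers against 2280 to 2610 CPM in the rest. In these bulk libraries, fewer cells of a type and less RNA per cell cannot be told apart.

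Per kilobase of exons, the family was led by Rabs of early endosomes, late endosomes and the secretory route. Rab5c, which drives fusion of early endosomes, had the highest mean level over the 30 libraries with 54 CPM per kb. It was followed by Rab8b, a Rab of exocytosis, with 51.1 CPM per kb and by Rab7, which moves cargo from late endosomes to lysosomes, with 47 CPM per kb. Rab2a and Rab1a, both of the route between endoplasmic reticulum (ER) and Golgi, had 37.3 and 36.6 CPM per kb, and Rab35, of endosomal recycling, had 33.8 CPM per kb. These 6 genes made up 36.8% to 43.6% of the summed level of all 59 members in each library. Altogether 21 members averaged above 10 CPM per kb, and 7 of the 47 tested members averaged under 1 CPM per kb. The order is not one of counts, since Rab14, a Rab of Golgi-to-endosome transport, had the highest mean CPM, at 289, before correction for length. The exons of 20 members share bases with another annotated gene, among them Rab24 with Prelid1, Rab6a with Mrpl48 and Rab20 with E230013L22Rik on the other strand. The library kit keeps strand, but the strand setting of the counting is not given in the sources used here, so values of these genes are uncertain to that extent, as are those of Rab11b, which has a processed pseudogene.

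**Figure D1:**
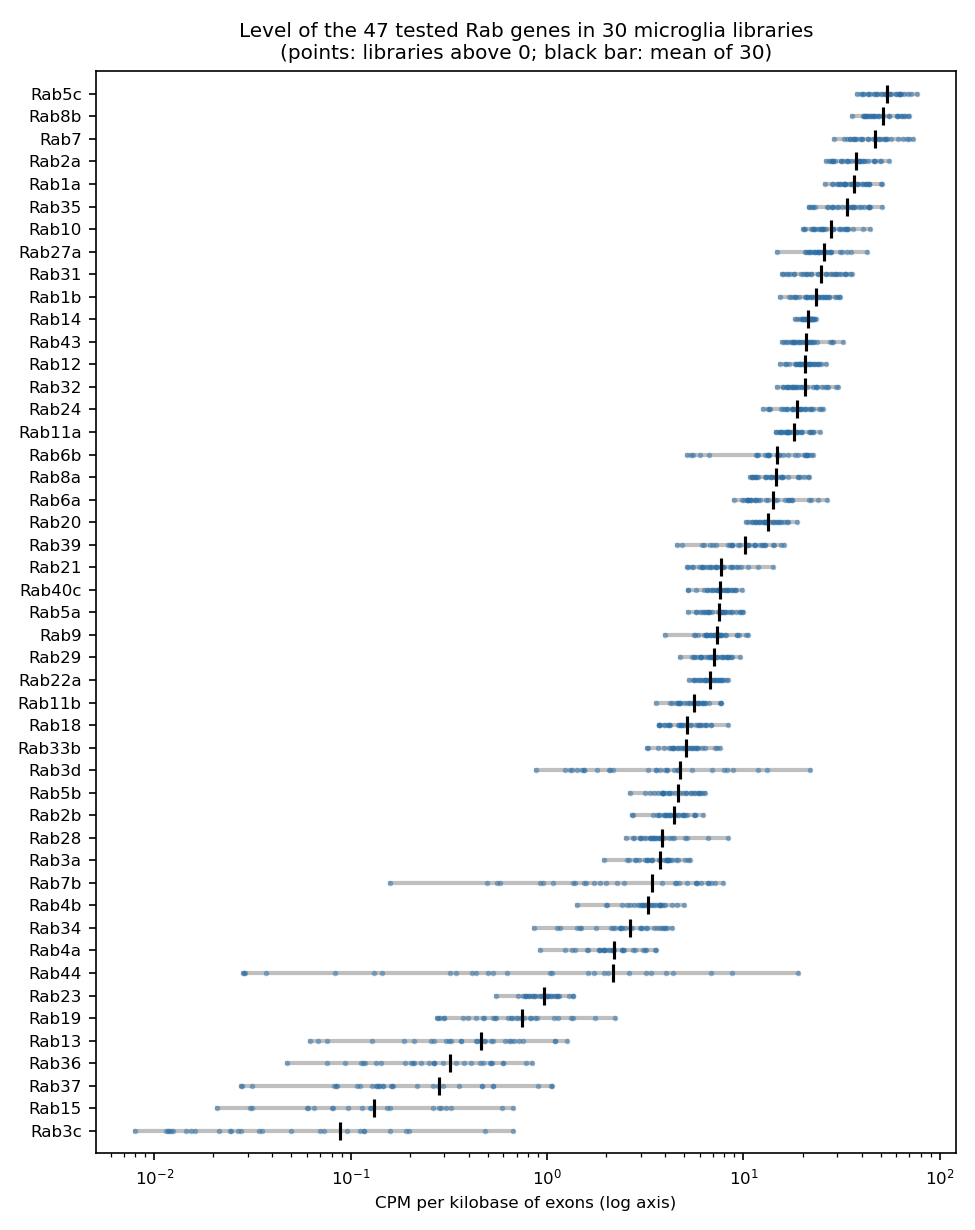
Level of each tested Rab gene in CPM per kilobase of exons on a log axis, with 1 point per library above 0 and a black bar at the mean of the 30 libraries. Rab5c, Rab8b and Rab7 lead with means of 54, 51.1 and 47 CPM per kb, and the members at the bottom lie under 1 CPM per kb.

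The summed level of the 59 members was lower in EAE than in naive libraries of each kind. It averaged 595 ± 14.8 CPM per kb in day 21 KO libraries and 689 ± 47.1 CPM per kb in naive KO libraries (SD, n = 4 each). In WT it averaged 561 ± 16.8 CPM per kb at day 21 (SD, n = 3) and 726 ± 27 CPM per kb in naive libraries (SD, n = 4). In old mice it averaged 647 ± 82.5 CPM per kb at day 35 (SD, n = 3) and 784 ± 38.1 CPM per kb in naive libraries (SD, n = 4). These sums are descriptions and were not tested.

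The first question was whether loss of Atg7 in microglia changes Rab expression before EAE. In naive mice no member was called between KO and WT by edgeR's quasi-likelihood test (called means a Benjamini-Hochberg adjusted p under 0.05 over all 13880 genes tested), where 0.288% of all genes were called. An unadjusted p under 0.05 was reached by 3 members, Rab43 (log2 fold change, log2FC, 0.29), Rab2a (-0.29) and Rab27a (-0.38), which releases secretory lysosomes and exosomes. DESeq2 called 0 members.

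At day 21 of EAE, KO microglia had less Rab6b, Rab39 and Rab34 and more Rab32, Rab43, Rab5c and Rab7b than WT microglia. Of 47 tested members, 4 were higher and 3 lower, 14.9% in all, where 9.18% of all genes were higher and 9.86% lower, or 19% called. The median log2FC was 0.03 over the tested members and 0 over all genes. In each of these 7 genes no KO library overlapped a WT library. That is no separate support, since the genes were picked by this test. Members that were not called, such as Rab3d, Rab1b and Rab31, did not overlap either. DESeq2 called the same 7 genes.

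Rab6b showed the clearest difference. It is a Golgi Rab of retrograde transport and is best known from neurons. Rab6b had 30.3, 27.3, 27.9 and 33.8 CPM in day 21 KO libraries, against 67.2, 58.6 and 59 CPM in day 21 WT libraries. The highest KO library lay well below the lowest WT library (log2FC -1.04, SE 0.181, adjusted p = 0.000208, edgeR). Its paralog Rab6a, of the same Golgi route, was not called, with 42.4, 39.5, 40.6 and 40.2 CPM in day 21 KO libraries and 39.5, 36.6 and 37.7 CPM in day 21 WT libraries (log2FC 0.10, SE 0.206, adjusted p = 0.775, edgeR).

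Rab39, a Rab of the Golgi and of maturing phagosomes, was also lower. Rab39 had 20.7, 18.4, 18.6 and 14.4 CPM in day 21 KO libraries, against 31, 28.4 and 31.8 CPM in day 21 WT libraries (log2FC -0.76, SE 0.198, adjusted p = 0.00808, edgeR). Rab34, which acts at the Golgi, in macropinosomes and in cilium formation, had 2.04, 2.78, 2.7 and 3.56 CPM in day 21 KO libraries, against 7.2, 4.25 and 5.33 CPM in day 21 WT libraries. The Rab34 levels are low and the groups came close to each other, with log2FC -1, SE 0.283 and adjusted p = 0.0136 by edgeR, and its call was lost without day 21 WT library 1.

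Rab32, which directs cargo to lysosome-related organelles, moved the other way. It had 58.6, 70.9, 60.6 and 69.2 CPM in day 21 KO libraries, against 41.9, 39.4 and 47.5 CPM in day 21 WT libraries (log2FC 0.59, SE 0.126, adjusted p = 0.00157, edgeR). Rab43, a Rab of the ER and Golgi, had 176.6, 151.9, 158.1 and 155.7 CPM in day 21 KO libraries, against 124.1, 113.04 and 121.6 CPM in day 21 WT libraries (log2FC 0.43, SE 0.0946, adjusted p = 0.00228, edgeR). The KO libraries were above the WT libraries in both genes. Rab5c had 137.9, 130.8, 121.9 and 138.7 CPM in day 21 KO libraries, against 89.6, 89.5 and 102.5 CPM in day 21 WT libraries (log2FC 0.49, SE 0.127, adjusted p = 0.00693, edgeR). Its paralogs Rab5a and Rab5b, which share the early endosome role, were not called and had log2FC 0.08 (SE 0.115) and -0.34 (SE 0.13).

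**Figure D2:**
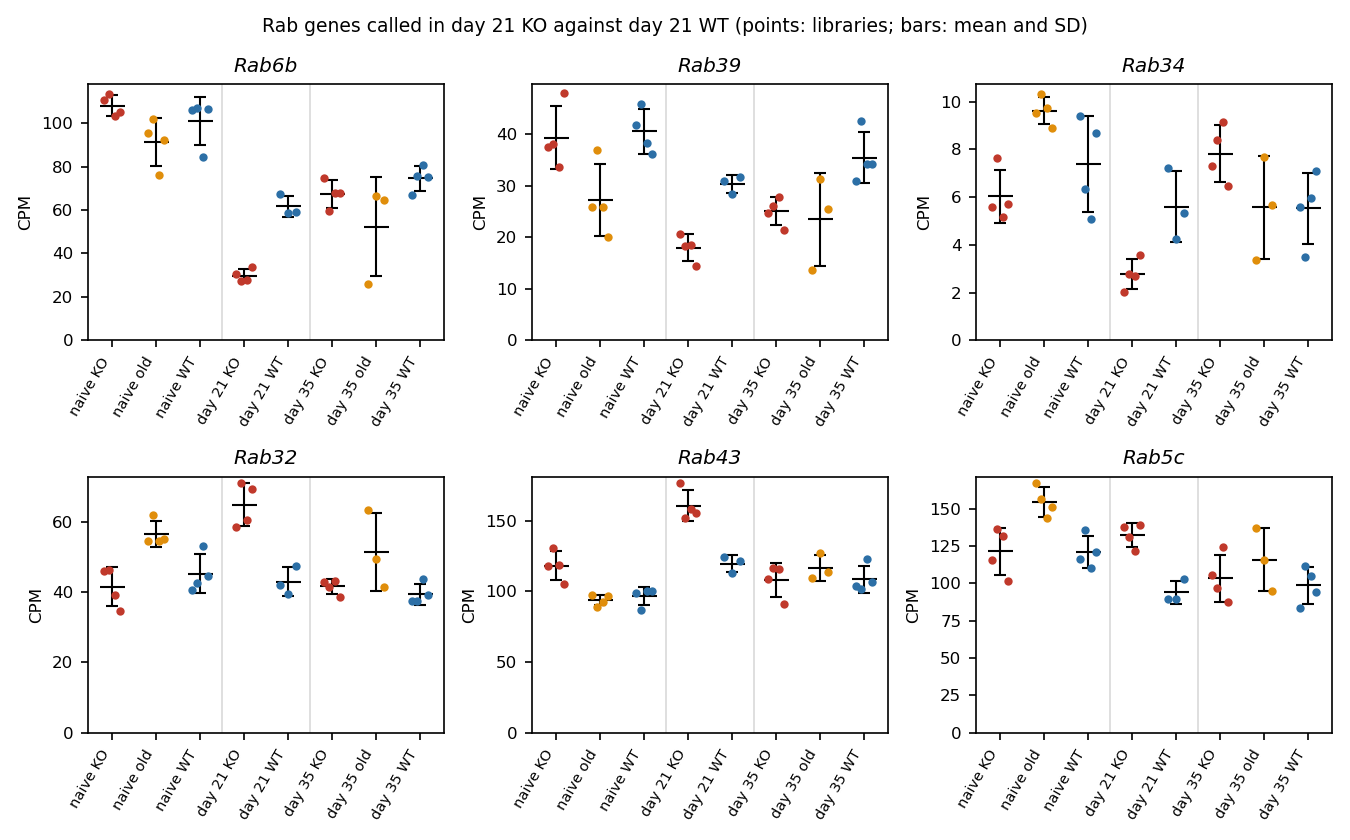
Level in CPM of 6 of the 7 Rab genes called at day 21 between KO and WT, with 1 point per library and the mean and SD of each of the 8 groups. Rab6b, Rab39 and Rab34 have their lowest group mean in day 21 KO libraries, where Rab6b reaches at most 33.8 CPM, and Rab32 and Rab43 have their highest group mean there.

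Marker genes of other cells moved with this comparison. The 10 monocyte markers summed to 2200 to 3030 CPM in day 21 KO libraries and 176.7 to 494.7 CPM in day 21 WT libraries, with 5 of 10 called higher. Border macrophage markers summed to 232.3 to 309.2 CPM in day 21 KO libraries and 14.3 to 64 CPM in day 21 WT libraries, with 4 of 8 called higher. The 10 homeostatic microglia markers summed to 5750 to 6490 CPM in day 21 KO libraries and 12200 to 14400 CPM in day 21 WT libraries, with 9 of 10 called lower. T and NK cell markers summed to 20.6 to 24.6 CPM in day 21 KO libraries and 1.31 to 4.52 CPM in day 21 WT libraries, with 5 of 5 tested called higher. Erythroid markers summed to 0.785 to 4 CPM in day 21 KO libraries and 26 to 81.5 CPM in day 21 WT libraries, with 5 of 5 called lower. Neuron markers summed to 5.56 to 7.11 CPM in day 21 KO libraries and 23.2 to 61.6 CPM in day 21 WT libraries. In the same order, oligodendrocyte sums were 113.4 to 126.97 and 149.1 to 280.3 CPM, and astrocyte sums 214.8 to 235.1 and 297.7 to 337.9 CPM. B cell sums were 110.6 to 140.5 and 234.1 to 255.2 CPM, and neutrophil sums 52 to 104.01 and 7.61 to 29.6 CPM. Their part in the Rab differences was not tested.

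The change from naive to day 21 differed between the genotypes for 2 members, or 4.26% of those tested, against 9.68% of all genes. For Rab6b the change was -1.86 in KO and -0.71 in WT on the log2 scale, a difference of -1.14 (SE 0.243, adjusted p = 0.00509, edgeR interaction term). For Rab32 it was 0.64 in KO and -0.07 in WT, a difference of 0.71 (SE 0.171, adjusted p = 0.0106). Both differences kept their calls without any single library of the 4 groups, and without naive WT library 1 the calls numbered 4.

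The promoters of these 2 genes, from 250 bases before to 50 bases after the transcription start, are shown because they belong to the members with opposite genotype-dependent changes (RefSeq, GRCm38.p6; Rab6b at chr9:103111824-103112123, plus strand, Rab32 at chr10:10558158-10558457, minus strand). Neither window holds CACGTG (the E-box core), TCACGTGA or the core of interferon-response elements, here TTTC, any 2 bases and TTTC again, on either strand, so no base is in capitals. They differ in base composition, with 78.7% G and C and 42 CpG dinucleotides for Rab6b, against 57.3% and 10 for Rab32. The median over all 27025 genes with a promoter was 52.8% and 7.
Rab6b: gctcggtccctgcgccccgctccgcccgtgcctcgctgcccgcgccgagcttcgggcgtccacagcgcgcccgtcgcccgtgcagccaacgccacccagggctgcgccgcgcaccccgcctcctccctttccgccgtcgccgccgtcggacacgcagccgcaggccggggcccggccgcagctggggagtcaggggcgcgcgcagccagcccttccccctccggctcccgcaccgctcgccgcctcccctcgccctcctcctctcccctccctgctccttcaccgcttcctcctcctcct
Rab32: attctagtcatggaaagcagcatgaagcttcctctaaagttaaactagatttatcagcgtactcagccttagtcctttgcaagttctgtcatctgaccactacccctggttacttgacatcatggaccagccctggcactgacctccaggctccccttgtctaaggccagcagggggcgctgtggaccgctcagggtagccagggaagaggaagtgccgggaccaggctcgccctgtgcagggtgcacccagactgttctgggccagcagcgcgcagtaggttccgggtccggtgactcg

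At day 35, a single member, Rab7b, was called between KO and WT, which is 2.13% of the tested members against 2.62% of all genes. EAE scores in the authors' sample table, whose scale is not stated, ran from 2.5 to 3 in day 35 KO libraries and from 1 to 1.5 in day 35 WT libraries. Rab6b was no longer apart, with 74.9, 59.3, 68 and 67.9 CPM in day 35 KO libraries and 66.9, 75.8, 80.6 and 75.2 CPM in day 35 WT libraries (log2FC -0.14, SE 0.164, adjusted p = 0.667, edgeR). No member was called in the test of whether the change from naive to day 35 differed between genotypes (0.367% of all genes), although 11 had an unadjusted p under 0.05 and DESeq2 called 2.

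Rab7b set KO and old microglia apart from WT microglia. Human RAB7B is known for transport from endosomes to the trans-Golgi network, in contrast to Rab7 with its route to lysosomes. At day 21 Rab7b had 30.6, 26.9, 21 and 21.6 CPM in KO libraries, against 8.04, 7.32 and 4.96 CPM in WT libraries (log2FC 1.90, SE 0.533, adjusted p = 0.0147, edgeR). At day 35 it had 30.5, 23.8, 33.2 and 26.7 CPM in KO libraries, against 4.43, 7.15, 2.66 and 8.66 CPM in WT libraries (log2FC 2.31, SE 0.489, adjusted p = 0.0169, edgeR). The genotypes did not overlap on either day. In naive mice the genotypes did overlap, with 6.41, 6.28, 10.6 and 0.733 CPM in KO libraries and 4.26, 2.58, 11.4 and 2.28 CPM in WT libraries, and Rab7b was not called (log2FC 0.21, SE 0.518, adjusted p = 0.945, edgeR).

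Old mice had high Rab7b before EAE. It had 36.6, 26.7, 31.7 and 17.8 CPM in naive old libraries, all above the naive WT libraries (log2FC 2.43, SE 0.499, adjusted p = 0.00375, edgeR), and this call held without any single library. At day 35 it had 28, 9.26 and 20.8 CPM in old libraries, all above the day 35 WT libraries (log2FC 1.74, SE 0.516, adjusted p = 0.0354, edgeR). The KO and old EAE libraries thus lay between 9.26 and 33.2 CPM and the WT libraries of any stage between 2.28 and 11.4 CPM. Within KO mice Rab7b rose by 2.04 at day 21 and by 2.23 at day 35 relative to naive KO on the log2 scale. The difference between genotypes in that change was not called at day 21 (log2FC 1.69, SE 0.738, adjusted p = 0.144), and it was not called for day 35 either (log2FC 2.10, SE 0.711, adjusted p = 0.142).

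The Rab7b calls at day 21 were lost without day 21 WT library 2 or 3, and those at day 35 without day 35 KO library 3 or day 35 WT library 1 or 2. The call between day 35 old and WT was lost without day 35 WT library 1, 2 or 3 or day 35 old library 1 or 3, and under 4 of 6 alternative settings. Moving day 35 WT library 3 to KO, as its status label has it, ended both day 35 calls. Within naive WT mice, library 3 had both the most neutrophil markers (16400 CPM) and the highest Rab7b level (11.4 CPM), and within naive KO mice library 4 had both the fewest markers and the lowest Rab7b level. Within naive old mice, library 4 had the most markers (13700 CPM) and the lowest Rab7b level (17.8 CPM), and library 1 had 7550 CPM of markers and 36.6 CPM of Rab7b. Monocyte markers summed to 932.8 to 1440 CPM in naive old libraries and 207.6 to 1920 CPM in naive WT libraries, and to 959.9 to 1400 CPM in day 35 KO libraries and 100.2 to 311.6 CPM in day 35 WT libraries. EAE scores too were higher in day 35 KO and day 35 old libraries than in day 35 WT libraries. The part of neutrophils, monocytes and EAE scores in the Rab7b differences was not tested.

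**Figure D3:**
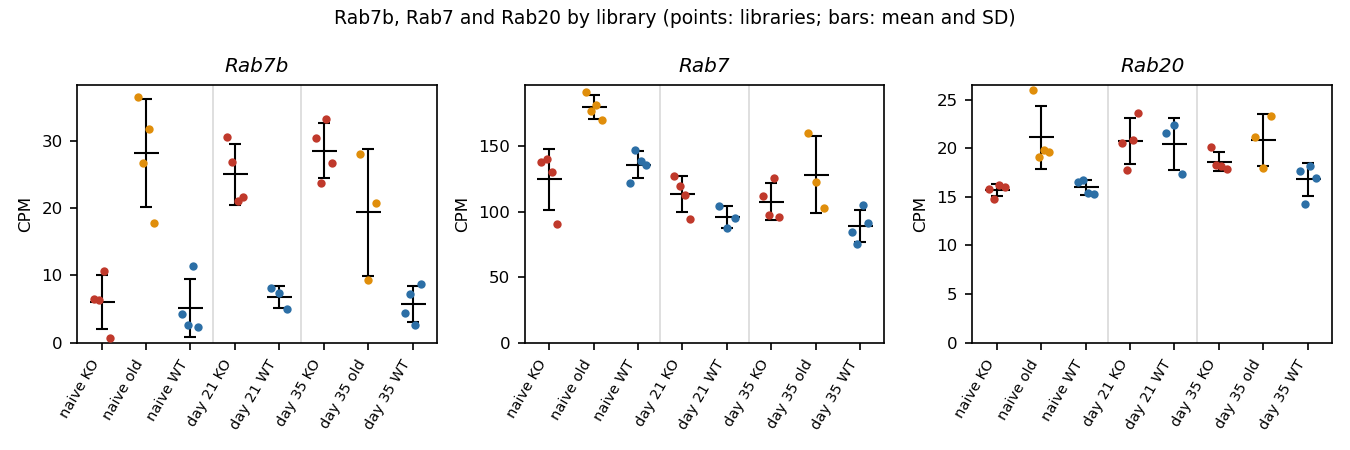
Level in CPM of Rab7b, Rab7 and Rab20, with 1 point per library and the mean and SD of each of the 8 groups. Rab7b lies between 17.8 and 36.6 CPM in naive old and in KO EAE libraries and at or below 11.4 CPM in all WT libraries.

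EAE was accompanied by lower levels of many Rabs of the ER, Golgi and endosomes. At day 21 in WT mice 20 of 47 members fell and 2 rose relative to naive WT, where 12% of all genes fell and 9.51% rose. The median log2FC was -0.36 over the tested members and -0.01 over all genes. At day 35 in WT mice 15 members fell and 0 rose relative to naive WT, where 10.7% of all genes fell and 8.4% rose, with a median of -0.29 over the members. No member was called between day 35 and day 21 in WT mice (0.0648% of all genes), 5 had an unadjusted p under 0.05, and DESeq2 called 0. Without day 21 WT library 1 or 2 the day 21 calls numbered 14, and without naive WT library 2 or day 35 WT library 1 the day 35 calls numbered 9. Cell type markers moved with these comparisons: at day 21 in WT mice 13 of 13 neutrophil, 7 of 8 border macrophage, 6 of 10 monocyte and 5 of 10 homeostatic microglia markers were called lower, and their part was not tested.

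In KO and old mice too, more members fell than rose. At day 21 in KO mice 16 members fell and 8 rose relative to naive KO, where 22.7% of all genes fell and 22.5% rose. At day 35 in KO mice 12 fell and 4 rose relative to naive KO, where 9.81% of all genes fell and 11.6% rose. At day 35 in old mice 16 fell and 3 rose relative to naive old, where 8.03% of all genes fell and 10.4% rose. The median log2FC over the members was -0.17, -0.21 and -0.21 in these comparisons, against 0.01, 0 and 0.03 over all genes. The old comparison rests on day 35 old library 3, without which 4 members were called (12 without naive old library 2), and no member was called in a fit of these groups alone. The 16 day 35 KO calls numbered 7 without day 35 KO library 4 and 10 without naive KO library 2. Cell type markers moved here as well. Monocyte markers summed to 36.2 to 495.5 CPM in naive KO libraries and 2200 to 3030 CPM in day 21 KO libraries. They summed to 959.9 to 1400 CPM in day 35 KO libraries. In old mice they summed to 932.8 to 1440 CPM in naive libraries and 471.3 to 4790 CPM at day 35. T and NK cell markers summed to 0.733 to 9.39 CPM in naive KO and 20.6 to 24.6 CPM in day 21 KO libraries. At day 35 they summed to 0.898 to 2.97 CPM in KO libraries. Homeostatic microglia markers were called lower for 9 of 10 at day 21 in KO mice, 8 of 10 at day 35 in KO mice and 5 of 10 at day 35 in old mice. Border macrophage markers were lower for 2, 6 and 6 of 8 in these comparisons, astrocyte markers higher for 1, 7 and 6 of 7, and neutrophil markers lower for 11, 0 and 0 of 13. The border macrophage sum was not lower at day 21 in KO mice. It was 27.9 to 293.7 CPM in naive KO and 232.3 to 309.2 CPM in day 21 KO libraries. Erythroid markers were lower for 2 of 5 at day 21 in KO mice, and higher for 5 of 5 at day 35 in KO mice and 1 of 5 in old mice. The part of these cells was not tested.

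Comparisons that share no library were those of day 21 WT, day 21 KO and day 35 old mice with their own naive groups. In all 3 of them 7 members fell, Rab1a, Rab5b, Rab6b, Rab10, Rab18, Rab31 and Rab35, or 14.9% of the tested members against 3.1% of all genes, and 2 rose, Rab36 and Rab43, or 4.26% against 3.75% of all genes. With any single library left out, all 7 falls kept their calls in day 21 KO mice, those of Rab1a, Rab6b, Rab31 and Rab35 in day 21 WT mice, and only those of Rab6b and Rab18 in day 35 old mice. Between day 21 WT and day 21 KO, 11 lower calls were shared, which is 55% of those in WT and 68.8% of those in KO, against 60.7% and 32.2% for the lower calls of all genes. No member was called in opposite directions in any of the 5 comparisons of EAE with naive mice.

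**Figure D4:**
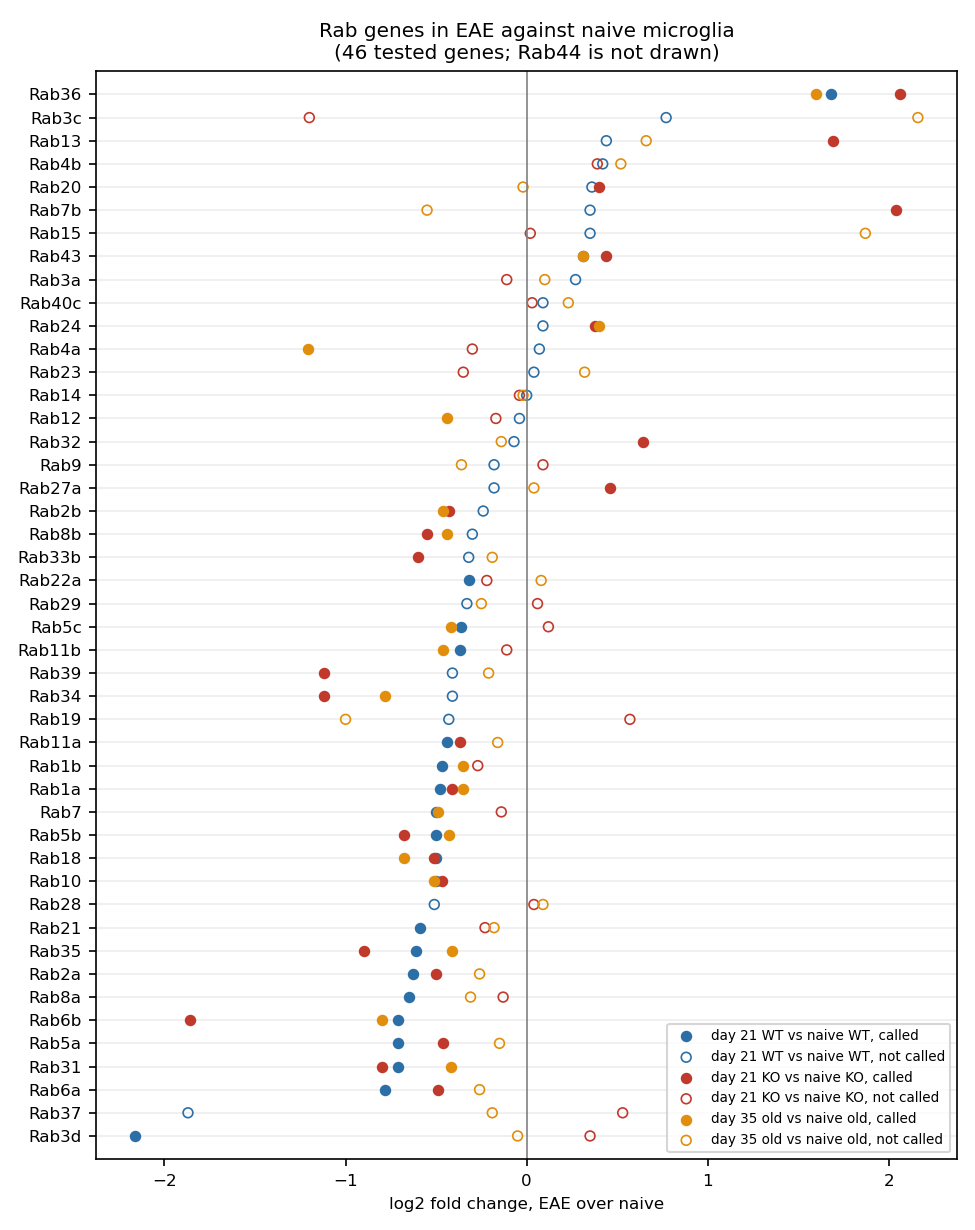
Log2 fold change of EAE over naive for 46 tested Rab genes in day 21 WT, day 21 KO and day 35 old mice, with filled points for called genes and open points for the others. Most filled points lie left of 0, Rab36 and Rab43 lie right of 0 in all 3, and Rab6b reaches -1.86 in KO. Rab44 is not drawn.

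Among early endosome Rabs, 6 of 8 tested members fell at day 21 in WT mice, 3 fell in day 21 KO mice and 3 fell in day 35 old mice, or 75%, 37.5% and 37.5%, where 12%, 22.7% and 8.03% of all genes fell. The 75% is fragile. Of the 7 fits that left out a library, the day 21 WT call of Rab22a held in 0 and that of Rab21 in 3. The Rab5b call was lost without day 21 WT library 2. Rab31, which links the trans-Golgi network to endosomes, fell in day 21 WT, day 21 KO and day 35 old mice. In WT mice Rab31 had 125.4, 125.5, 117.4 and 120.2 CPM in naive libraries, 69.3, 74.7 and 79.8 CPM at day 21 and 76.5, 69.4, 91.7 and 79.2 CPM at day 35. In KO mice it had 112.6, 110.1, 108.5 and 105 CPM in naive libraries, 63.9, 66, 60.6 and 60.2 CPM at day 21 and 91.8, 81.6, 84.2 and 62.8 CPM at day 35. All EAE libraries of both genotypes lay below all naive libraries of their genotype. It fell by 0.71 (SE 0.106, adjusted p = 2.55e-05) in WT and by 0.80 (SE 0.098, adjusted p = 1.85e-07) in KO on the log2 scale at day 21 (edgeR). In old mice it had 100.3, 100.5 and 83.8 CPM at day 35, against 135.8, 132.8, 127.1 and 112.4 CPM in naive libraries (log2FC -0.42, SE 0.105, adjusted p = 0.00735, edgeR), and this call was lost without day 35 old library 3.

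The paralogs Rab5a and Rab5b, both of early endosome fusion, fell in WT and KO mice at day 21. Rab5a had 27.5, 30.3 and 34.4 CPM in day 21 WT libraries, against 51.8, 50.9, 46.4 and 52.3 CPM in naive WT libraries (log2FC -0.71, SE 0.115, adjusted p = 7.42e-05, edgeR). In KO mice it had 31.7, 33.2, 30.4 and 35.1 CPM at day 21, against 42.8, 45.7, 48.3 and 42.4 CPM in naive libraries (log2FC -0.46, SE 0.105, adjusted p = 0.000795, edgeR). Rab5b had 16.3, 13.2, 11.1 and 14.1 CPM in day 21 KO libraries, against 22.6, 23.6, 21.5 and 19.9 CPM in naive KO libraries (log2FC -0.68, SE 0.12, adjusted p = 4.15e-05, edgeR). At day 35 in WT mice Rab5b had 15.4, 16.9, 16.1 and 17.6 CPM, against 25.6, 24.9, 25 and 22.7 CPM in naive WT libraries (log2FC -0.57, SE 0.119, adjusted p = 0.00211, edgeR). The third paralog, Rab5c, was called lower at day 21 in WT mice (log2FC -0.36, SE 0.126, adjusted p = 0.0394) but not in KO mice (log2FC 0.12, SE 0.116, adjusted p = 0.401), and the difference between genotypes in this change was not called (log2FC 0.49, SE 0.171, adjusted p = 0.0674). The naive WT Rab5c levels were 116.4, 135.8, 110.5 and 120.7 CPM and the naive KO levels 115.5, 136.4, 131.9 and 101.8 CPM. Its WT call was lost without any of 4 libraries (naive WT 2 or 4, day 21 WT 1 or 2).

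In day 21 KO mice 2 of the 8, Rab20 and Rab24, rose, which at 25% is near the 22.5% of all genes. Rab20, of phagosome maturation, had 20.6, 17.8, 20.9 and 23.6 CPM in day 21 KO libraries, against 15.8, 14.8, 16.2 and 16 CPM in naive KO libraries (log2FC 0.40, SE 0.122, adjusted p = 0.00857, edgeR). Rab24, an atypical Rab of autophagy, had 40.8, 45.4, 42.1 and 51 CPM in day 21 KO libraries, against 35.5, 35.8, 26.9 and 39.4 CPM in naive KO libraries (log2FC 0.38, SE 0.126, adjusted p = 0.0147, edgeR). In both genes every day 21 KO library lay above every naive KO library, and the Rab24 call was lost without naive KO library 3 or day 21 KO library 4. Rab24 also rose in day 35 old libraries, with 44.3, 33.6 and 33.6 CPM, against 27.6, 27.1, 25.5 and 32.2 CPM in naive old libraries (log2FC 0.40, SE 0.138, adjusted p = 0.0414, edgeR), and this call was lost without any of 5 of the 7 libraries.

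Of 13 tested ER and Golgi Rabs, 6 fell in day 21 WT mice, 9 in day 21 KO mice and 6 in day 35 old mice, or 46.2%, 69.2% and 46.2%, where 12%, 22.7% and 8.03% of all genes fell, and 2 rose in each (15.4%, where 9.51%, 22.5% and 10.4% of all genes rose). The largest fall in day 21 KO mice was that of Rab6b. It had 110.6, 113.4, 103.3 and 105 CPM in naive KO libraries, 30.3, 27.3, 27.9 and 33.8 CPM at day 21 and 74.9, 59.3, 68 and 67.9 CPM at day 35. The naive libraries lay highest, the day 21 libraries lowest and the day 35 libraries between them, without overlap. Rab6b fell by 1.86 (SE 0.171, adjusted p = 1.53e-09) at day 21 relative to naive KO, and day 35 KO was higher than day 21 KO by 1.18 (SE 0.17, adjusted p = 1.26e-05) on the log2 scale. In WT mice it had 106.1, 106.96, 84.4 and 106.3 CPM in naive libraries, 67.2, 58.6 and 59 CPM at day 21 and 66.9, 75.8, 80.6 and 75.2 CPM at day 35. In old mice it had 25.9, 66.4 and 64.7 CPM at day 35, against 95.3, 102.04, 76 and 92.1 CPM in naive libraries (log2FC -0.80, SE 0.18, adjusted p = 0.00368, edgeR), and the lowest value came from library 1 with its high neutrophil markers.

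Rab1a and Rab1b, which act in transport from ER to Golgi, and Rab2a fell by less. Rab1a had 114.05, 118.2 and 123.8 CPM in day 21 WT libraries, against 165.8, 193.04, 157.9 and 143.98 CPM in naive WT libraries (log2FC -0.48, SE 0.106, adjusted p = 0.00209, edgeR). Rab1b had 39.8, 34.8, 47.3 and 46.9 CPM in day 35 WT libraries, against 56.6, 61, 54.4 and 59.7 CPM in naive WT libraries (log2FC -0.46, SE 0.116, adjusted p = 0.0075, edgeR). The groups did not overlap in either gene. Rab2a had 105.7, 107.2, 98.9 and 100.2 CPM in naive WT libraries, 60.8, 66.9 and 71.6 CPM at day 21 and 60.6, 68.8, 72.8 and 80.7 CPM at day 35 (log2FC -0.63, SE 0.121, adjusted p = 0.000492 for day 21 by edgeR). In KO mice Rab2a had 56.2, 61.2, 58.5 and 62.5 CPM at day 21, against 91.6, 83.2, 83.8 and 79.2 CPM in naive libraries (log2FC -0.50, SE 0.111, adjusted p = 0.000538, edgeR).

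Rab39, Rab34 and Rab18 fell in part of the comparisons. Rab39 had 37.5, 38.2, 33.6 and 48 CPM in naive KO libraries, 20.7, 18.4, 18.6 and 14.4 CPM at day 21 and 24.8, 26.1, 27.9 and 21.5 CPM at day 35, without overlap of naive and EAE libraries (log2FC -1.12, SE 0.185, adjusted p = 1.58e-05 for day 21 by edgeR). In WT mice Rab39 was not called at day 21 (log2FC -0.41, SE 0.195, adjusted p = 0.129), nor was the difference between genotypes in this change (adjusted p = 0.0851). Rab18, of the ER and lipid droplets, had 32.3, 32.8 and 25.5 CPM in day 35 old libraries, against 44.2, 57.4, 44.3 and 47 CPM in naive old libraries (log2FC -0.68, SE 0.143, adjusted p = 0.00215, edgeR). That Rab18 call held without any single library.

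Rab34 was higher again at day 35 in KO mice. It had 5.59, 7.64, 5.15 and 5.72 CPM in naive KO libraries, 2.04, 2.78, 2.7 and 3.56 CPM at day 21 and 7.28, 8.39, 9.15 and 6.45 CPM at day 35, with log2FC 1.49, SE 0.264, adjusted p = 0.000165 for day 35 over day 21 (edgeR). The change from day 21 to day 35 differed between KO and WT for Rab34 by 1.50 (adjusted p = 0.0278) and for Rab6b by 0.90 (adjusted p = 0.0433), as edgeR interaction terms on the log2 scale. These were the 2 members called, or 4.26% of those tested, against 2.67% of all genes. The Rab34 call held in 8 of the 15 fits that left out a library and the Rab6b call in 3 of 15.

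Rab36, placed with the Golgi Rabs here, and Rab43 rose. Rab36 had 5.18, 3.71, 4.81 and 2.82 CPM in day 21 KO libraries, against 1.64, 0.58, 1.42 and 0.293 CPM in naive KO libraries (log2FC 2.06, SE 0.417, adjusted p = 0.000206, edgeR). In WT mice it had 3.68, 2.93 and 2.34 CPM at day 21, against 0.735, 0.469, 1.65 and 0.713 CPM in naive libraries (log2FC 1.68, SE 0.457, adjusted p = 0.00917, edgeR). In old mice it had 3.22, 1.83 and 3.18 CPM at day 35, against 0.829, 0.875, 1.17 and 0.699 CPM in naive libraries (log2FC 1.60, SE 0.461, adjusted p = 0.0171, edgeR). The Rab36 level was low throughout, and EAE libraries lay above naive libraries each time. The Rab36 call in old mice was lost without day 35 old library 3. Rab43 had 117.95, 130.5, 118.9 and 105.3 CPM in naive KO libraries, 176.6, 151.9, 158.1 and 155.7 CPM at day 21 and 109.04, 116.8, 115.6 and 91 CPM at day 35, so that day 21 stood out. Against naive KO, day 21 gave log2FC 0.44, SE 0.087, adjusted p = 0.00015, and day 35 KO was lower than day 21 KO, with log2FC -0.57, SE 0.0873, adjusted p = 2.55e-05 (edgeR). In WT mice Rab43 had 124.1, 113.04 and 121.6 CPM at day 21, against 98.8, 87, 99.9 and 100.1 CPM in naive libraries (log2FC 0.31, SE 0.0941, adjusted p = 0.0188, edgeR). That WT call was lost without day 21 WT library 1 or 3.

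Among recycling Rabs, Rab35 fell in EAE. In KO mice Rab35 had 123.8, 123.1, 116.2 and 122.4 CPM in naive libraries, 61.2, 76.1, 62.8 and 61 CPM at day 21 and 85.4, 80.4, 93.9 and 63.9 CPM at day 35 (log2FC -0.90, SE 0.114, adjusted p = 3.25e-07 for day 21 by edgeR). In WT mice it had 122.6, 143.8, 101.3 and 121.9 CPM in naive libraries, 79.5, 75 and 84.9 CPM at day 21 and 89.2, 96.8, 101.6 and 100.6 CPM at day 35 (log2FC -0.61, SE 0.123, adjusted p = 0.00075 for day 21 by edgeR). Naive and EAE libraries did not overlap in KO mice and overlapped at day 35 in WT mice, where its call (log2FC -0.33, SE 0.112, adjusted p = 0.0366, edgeR) held without naive WT library 3 or day 35 WT library 3 and was lost without any of the other 6 libraries. Rab11b, of the recycling endosome, had 34.6, 32.3 and 31.6 CPM in day 35 old libraries, against 47.4, 39.2, 47.2 and 46.3 CPM in naive old libraries (log2FC -0.46, SE 0.121, adjusted p = 0.0107, edgeR), a call that was lost without day 35 old library 3. Rab4a, of fast recycling from early endosomes, fell in old mice, with 1.61, 2.44 and 2.17 CPM at day 35, against 4.83, 5.54, 6.22 and 2.8 CPM in naive libraries (log2FC -1.21, SE 0.3, adjusted p = 0.00719, edgeR). Rab14 fell by little, with 270.4, 271.2, 263.9 and 253.5 CPM in day 35 KO libraries, against 305.9, 303.4, 297.9 and 318.1 CPM in naive KO libraries (log2FC -0.21, SE 0.0659, adjusted p = 0.0227, edgeR), and the call was lost under 4 of 6 alternative settings and without naive KO library 4 or day 35 KO library 4.

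Of 5 Rabs of exocytosis and cell polarity, 2 fell in day 21 WT mice, 2 fell and 1 rose in day 21 KO mice, and 3 fell in day 35 old mice. The falls are 40%, 40% and 60% of the 5, where 12%, 22.7% and 8.03% of all genes fell, and the 1 rise is 20%, where 22.5% of all genes rose. Rab8b had 316.1, 304.2, 331.6 and 231.3 CPM in naive KO libraries, 218.1, 202.8, 196.1 and 191.9 CPM at day 21 and 211.7, 221.9, 193.6 and 168.8 CPM at day 35 (log2FC -0.55, SE 0.111, adjusted p = 0.000198 for day 21 by edgeR). Rab8a, its paralog, had 52.1, 50.5 and 55.3 CPM in day 21 WT libraries, against 74, 88.7, 95 and 74 CPM in naive WT libraries (log2FC -0.65, SE 0.151, adjusted p = 0.00279, edgeR), and was not called in KO mice at day 21 (log2FC -0.13, SE 0.138, adjusted p = 0.462), nor was the difference between genotypes in this change (adjusted p = 0.0965). Rab10, which brings vesicles to the plasma membrane, had 71.6, 100, 88.3 and 92.2 CPM in day 35 WT libraries, against 119.7, 142.4, 107.4 and 115.9 CPM in naive WT libraries (log2FC -0.46, SE 0.118, adjusted p = 0.00768, edgeR). All EAE libraries were below the naive ones for these values of Rab8b, Rab8a and Rab10, and the Rab10 call was lost without naive WT library 2. In KO mice Rab10 had 84.5, 79.4, 86.5 and 70.6 CPM at day 35, against 118.2, 126.4, 111.7 and 100.01 CPM in naive libraries (log2FC -0.51, SE 0.118, adjusted p = 0.0032, edgeR). Rab12 fell in old mice, with 46.7, 60.8 and 49.4 CPM at day 35, against 75.1, 79.9, 73.3 and 56.3 CPM in naive libraries (log2FC -0.44, SE 0.127, adjusted p = 0.0167, edgeR), and the difference between old and WT in this change was not called (adjusted p = 0.37). The Rab12 call was lost without naive old library 2 or day 35 old library 1 or 3. Rab13, of epithelial junctions, had 1.41, 1.11, 1.5 and 2.52 CPM in day 21 KO libraries, against 1.23, 0.483, 0 and 0.293 CPM in naive KO libraries (log2FC 1.69, SE 0.633, adjusted p = 0.0304, edgeR), a difference among very low counts that was lost without naive KO library 2, 3 or 4 or day 21 KO library 4.

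Rab7 fell in WT and in old mice. It had 122.3, 147.3, 138.6 and 135.7 CPM in naive WT libraries, 104.8, 87.9 and 95.1 CPM at day 21 and 84.8, 75.3, 105.05 and 91.2 CPM at day 35 (log2FC -0.61, SE 0.135, adjusted p = 0.00285 for day 35 by edgeR). The day 21 WT call was lost without day 21 WT library 2. In day 35 old libraries it had 160.4, 122.6 and 102.6 CPM, against 191.6, 177.5, 181.7 and 169.9 CPM in naive old libraries (log2FC -0.49, adjusted p = 0.0203, edgeR). That call was lost without naive old library 1 or day 35 old library 3. In day 21 KO mice it was not called, with 127.7, 119.6, 112.7 and 94.7 CPM, against 137.9, 140.6, 130.7 and 90.5 CPM in naive KO libraries (log2FC -0.14, SE 0.133, adjusted p = 0.419), and the difference between genotypes in this change was not called either (adjusted p = 0.243). Naive KO library 4, which stood apart by its neutrophil markers, was the lowest of these.

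Among Rabs of lysosome-related organelles and secretion, Rab32 and Rab27a rose in day 21 KO mice, 2 of 7 tested or 28.6%, where 22.5% of all genes rose. Rab32 had 46, 46.3, 39.2 and 34.6 CPM in naive KO libraries, 58.6, 70.9, 60.6 and 69.2 CPM at day 21 and 42.9, 41.5, 43.2 and 38.6 CPM at day 35 without overlap of day 21 with the other groups. Against naive KO, day 21 gave log2FC 0.64, SE 0.116, adjusted p = 5.55e-05, and day 35 KO was lower than day 21 KO, with log2FC -0.64, SE 0.116, adjusted p = 0.000211 (edgeR). In WT mice Rab32 had 41.9, 39.4 and 47.5 CPM at day 21, against 40.6, 42.5, 53.1 and 44.6 CPM in naive libraries (log2FC -0.07, SE 0.126, adjusted p = 0.722). Rab27a had 106.8, 100.9, 120.2 and 108.5 CPM in day 21 KO libraries, against 92.3, 84.5, 82.9 and 57.3 CPM in naive KO libraries (log2FC 0.46, SE 0.153, adjusted p = 0.0155, edgeR), and its call was lost without naive KO library 4, the lowest one.

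The E-box core CACGTG stands in the promoter window of 6 members. Rab20, Rab24 and Rab27a rose in day 21 KO mice relative to naive KO, Rab5a fell at day 21 in both KO and WT mice, Rab21, another Rab of early endosomes, fell in day 21 WT mice, and Rab23 was called in no comparison. Of the 59 members 48 have a RefSeq promoter (GRCm38.p6). CACGTG, which reads the same on both strands, was present in 6 of these 48 genes (12.5%) and in 8.09% of all 27025 genes. TCACGTGA, which contains it, was present in 3 of 48 (6.25%) and in 1.12% of all genes, and the interferon-response core on either strand was present in 1 of 48 (2.08%) and in 3.99% of all genes. The matches describe letters in these windows and not binding. Both CACGTG and TCACGTGA hold a CpG. The tested members had a median of 24.5 CpG per window, against 7 over all genes, and the shares were not adjusted for this. The promoters of the 5 called members are shown with CACGTG or TCACGTGA in capitals, for Rab20 at chr8:11478591-11478890, minus strand, Rab24 at chr13:55321931-55322230, minus strand, Rab27a at chr9:73063898-73064197, plus strand, Rab5a at chr17:53478984-53479283, plus strand and Rab21 at chr10:115315542-115315841, minus strand. Rab27a has more than 1 listed start, and the one shown holds the match. Rab24, Rab5a and Rab21 hold the longer form.
Rab20: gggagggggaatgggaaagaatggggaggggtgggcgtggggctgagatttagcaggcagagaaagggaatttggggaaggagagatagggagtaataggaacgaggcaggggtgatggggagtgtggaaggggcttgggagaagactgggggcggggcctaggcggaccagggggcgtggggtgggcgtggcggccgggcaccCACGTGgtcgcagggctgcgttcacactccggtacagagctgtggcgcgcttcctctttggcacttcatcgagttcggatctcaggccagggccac
Rab24: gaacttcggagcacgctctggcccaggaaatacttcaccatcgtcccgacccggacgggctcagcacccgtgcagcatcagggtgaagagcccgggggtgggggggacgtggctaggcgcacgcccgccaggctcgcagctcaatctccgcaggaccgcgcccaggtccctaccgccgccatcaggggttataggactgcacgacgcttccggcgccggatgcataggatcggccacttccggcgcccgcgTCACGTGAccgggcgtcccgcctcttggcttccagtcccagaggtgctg
Rab27a: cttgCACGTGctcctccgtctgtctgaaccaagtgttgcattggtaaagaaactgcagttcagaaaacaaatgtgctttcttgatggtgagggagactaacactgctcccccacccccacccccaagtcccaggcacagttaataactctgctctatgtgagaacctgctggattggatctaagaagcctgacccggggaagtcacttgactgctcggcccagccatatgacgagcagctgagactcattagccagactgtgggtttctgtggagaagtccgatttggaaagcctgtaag
Rab5a: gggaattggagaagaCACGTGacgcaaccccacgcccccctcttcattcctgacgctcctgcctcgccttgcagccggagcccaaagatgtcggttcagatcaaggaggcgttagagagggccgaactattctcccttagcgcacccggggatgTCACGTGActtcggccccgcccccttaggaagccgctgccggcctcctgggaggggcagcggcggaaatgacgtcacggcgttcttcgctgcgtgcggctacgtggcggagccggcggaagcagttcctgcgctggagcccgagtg
Rab21: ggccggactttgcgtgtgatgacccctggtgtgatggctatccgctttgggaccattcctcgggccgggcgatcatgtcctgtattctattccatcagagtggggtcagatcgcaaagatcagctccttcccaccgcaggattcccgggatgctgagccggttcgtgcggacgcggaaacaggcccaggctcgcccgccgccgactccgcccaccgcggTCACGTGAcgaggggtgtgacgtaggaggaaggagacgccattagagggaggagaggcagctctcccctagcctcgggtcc

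Rab3c and Rab15, both at low levels, rose at day 35 in KO mice. Rab3c, of synaptic vesicle release, had 5.79, 2.4, 0.141 and 8.07 CPM in day 35 KO libraries, against 0.409, 0.0967, 0.257 and 0.88 CPM in naive KO libraries (log2FC 3.35, SE 0.875, adjusted p = 0.00765, edgeR). Rab15, of endosomal recycling, had 1.34, 1.5, 0.282 and 3.1 CPM in day 35 KO libraries, against 0, 0.0967, 0 and 0.587 CPM in naive KO libraries (log2FC 3.17, SE 1.11, adjusted p = 0.0408, edgeR). The groups overlapped in both genes, since day 35 KO library 3 lay within the naive range. The Rab15 call was lost without naive KO library 1, 2 or 3 or day 35 KO library 1 and without the filter on low counts, and without day 35 KO library 2 or 4 the gene had too few counts to be tested. The 8 neuron markers summed to 7.46 to 138.2 CPM in day 35 KO libraries and 8.88 to 27 CPM in naive KO libraries, with the lowest sum in day 35 KO library 3 as well, and 5 of 6 tested were called higher. Their part in these differences was not tested. Relative to day 21 KO, 7 members rose and 3 fell at day 35, where 13.3% of all genes rose and 11.7% fell, and without day 35 KO library 1 or 2 the calls numbered 6. Rab3a, of regulated secretion, rose, with 11.9, 11.7, 9.15 and 11.3 CPM in day 35 KO libraries, against 5.65, 6.31, 7.66 and 9.33 CPM in day 21 KO libraries (log2FC 0.60, SE 0.21, adjusted p = 0.0363, edgeR). The Rab3a groups overlapped, and the call was lost without any of 6 of the 8 libraries (it held without day 21 KO library 4 or day 35 KO library 3).

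Naive old mice differed from naive WT mice in 3 members. Rab7b and Rab20 were higher and Rab39 was lower, where 5.03% of all genes were higher and 3.15% lower. Rab20 had 26, 19.1, 19.8 and 19.6 CPM in naive old libraries, against 16.5, 16.7, 15.4 and 15.3 CPM in naive WT libraries, without overlap (log2FC 0.41, SE 0.123, adjusted p = 0.0382, edgeR). Rab39 had 26, 36.9, 26 and 20.1 CPM in naive old libraries, against 41.9, 46, 38.3 and 36.2 CPM in naive WT libraries, with overlap (log2FC -0.57, SE 0.181, adjusted p = 0.0488, edgeR). A single member was called without naive WT library 1 or 4 or naive old library 1 or 3. The Rab20 call was lost without any of 5 of the 8 libraries and the Rab39 call without any of 7. Rab7 did not reach the threshold, although its 191.6, 177.5, 181.7 and 169.9 CPM in naive old libraries lay above all of the 122.3, 147.3, 138.6 and 135.7 CPM in naive WT libraries (log2FC 0.41, SE 0.133, adjusted p = 0.0545, edgeR).

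At day 35, 7 members were higher in old than in WT mice and none was lower, where 7.51% of all genes were higher and 1.94% lower. EAE scores were 2.75, 2.75 and 3 in day 35 old libraries and 1 to 1.5 in day 35 WT libraries. The part of these scores was not tested. All 7 calls were lost without day 35 old library 1, while the calls numbered 11 without old library 2, 13 without old library 3, 2 without WT library 1 or 2 and 4 without WT library 4. Rab7 had 160.4, 122.6 and 102.6 CPM in day 35 old libraries, against 84.8, 75.3, 105.05 and 91.2 CPM in day 35 WT libraries (log2FC 0.53, SE 0.144, adjusted p = 0.0212, edgeR). Rab28, of photoreceptor cilia, had 38, 16.2 and 16.8 CPM in day 35 old libraries, against 15.9, 11.4, 13.6 and 15.4 CPM in day 35 WT libraries (log2FC 0.74, SE 0.221, adjusted p = 0.033, edgeR). Library 1 was the highest in both. Rab13 had 2.9, 1.1 and 1.01 CPM in day 35 old libraries, against 0.143, 0.609, 0.157 and 0.433 CPM in day 35 WT libraries (log2FC 2.24, SE 0.714, adjusted p = 0.0448, edgeR), and Rab32 had 63.4, 49.5 and 41.4 CPM in day 35 old libraries, against 37.5, 37.3, 43.7 and 39.1 CPM in day 35 WT libraries (log2FC 0.38, SE 0.125, adjusted p = 0.0497, edgeR). The calls of Rab7, Rab28, Rab13 and Rab32 were each lost without WT library 1 or 2 as well, those of Rab28, Rab13 and Rab32 without WT library 4, those of Rab28 and Rab13 without WT library 3 and that of Rab32 without old library 2. The change from naive to day 35 differed between old and WT in no member (0.0432% of all genes), while 6 had an unadjusted p under 0.05 and DESeq2 called 1.

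Rab44 and Rab3d were high in libraries with high neutrophil markers. They were not alone in this. Day 35 old library 1, with most of these markers, also had the highest Rab6a, Rab8a, Rab13, Rab21, Rab27a, Rab28 and Rab37. It had the lowest Rab3a, Rab4a, Rab6b, Rab12, Rab14 and Rab39. Among naive WT libraries, library 3, with most of these markers there, was highest for Rab6a, Rab8a, Rab27a, Rab28 and Rab37. Mouse Rab44 is known from mast cell degranulation, and Rab3d from secretory granules. Rab44 had 96.2, 5.36 and 1.74 CPM in day 35 old libraries, where the neutrophil markers summed to 31800, 1960 and 73.4 CPM. In day 35 WT libraries Rab44 had 0.143, 0, 0 and 0.144 CPM, 2 counts in all, and the markers summed to 39.3, 34.7, 4.54 and 17.2 CPM. The ratio of Rab44 counts per library size, day 35 old over day 35 WT, was 412 (95% exact interval 113.6 to 3410, counting error only), with adjusted p = 0.0101 by edgeR. Without day 35 old library 1 the ratio was 49.8 (95% exact interval 13.2 to 421, counting error only) and the call was lost (adjusted p = 0.345, edgeR). Naive WT libraries had 5.29, 22.3, 34.5 and 20.4 CPM, so that day 35 WT over naive WT gave a ratio of 0.00365 (95% exact interval 0.000441 to 0.0132, counting error only), with adjusted p = 0.00223 by edgeR. At day 21 Rab44 had 0.67, 0.146 and 0.187 CPM in WT libraries, below every naive WT library (log2FC -6.01, SE 1.44, adjusted p = 0.00503, edgeR).

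Rab3d was also highest in day 35 old library 1. It had 91.4, 15 and 6.51 CPM in day 35 old libraries, against 5.15, 5.48, 5.95 and 6.35 CPM in day 35 WT libraries (log2FC 2.70, SE 0.638, adjusted p = 0.0136, edgeR). Without library 1 the log2FC was 0.92 and the call was lost (adjusted p = 0.604, edgeR). In WT mice it had 8.82, 23, 49.7 and 34.5 CPM in naive libraries, 7.54, 6.44 and 5.61 CPM at day 21 and 5.15, 5.48, 5.95 and 6.35 CPM at day 35 (log2FC -2.16, SE 0.667, adjusted p = 0.0231 for day 21 by edgeR). The day 21 WT call was lost without naive WT library 3 or any of the 3 day 21 WT libraries. Day 21 KO libraries stood apart from this order, with 18.5, 17.1, 16.8 and 19.4 CPM of Rab3d beside neutrophil sums of only 52, 70.1, 94.8 and 104.01 CPM. The neutrophil sums were 7.61 to 29.6 CPM in day 21 WT libraries, and all 13 genes were called lower there relative to naive WT, as were 11 of 13 in day 21 KO mice relative to naive KO. Their part in the other Rab differences between EAE and naive mice was not tested. Without naive WT library 3, the one with most neutrophil markers, 19 members were lower and 2 higher at day 21 in WT mice, and 14 were lower at day 35. The remaining naive WT libraries still had neutrophil sums of 1540, 7650 and 8930 CPM, so these counts do not test the part of neutrophils.

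**Figure D5:**
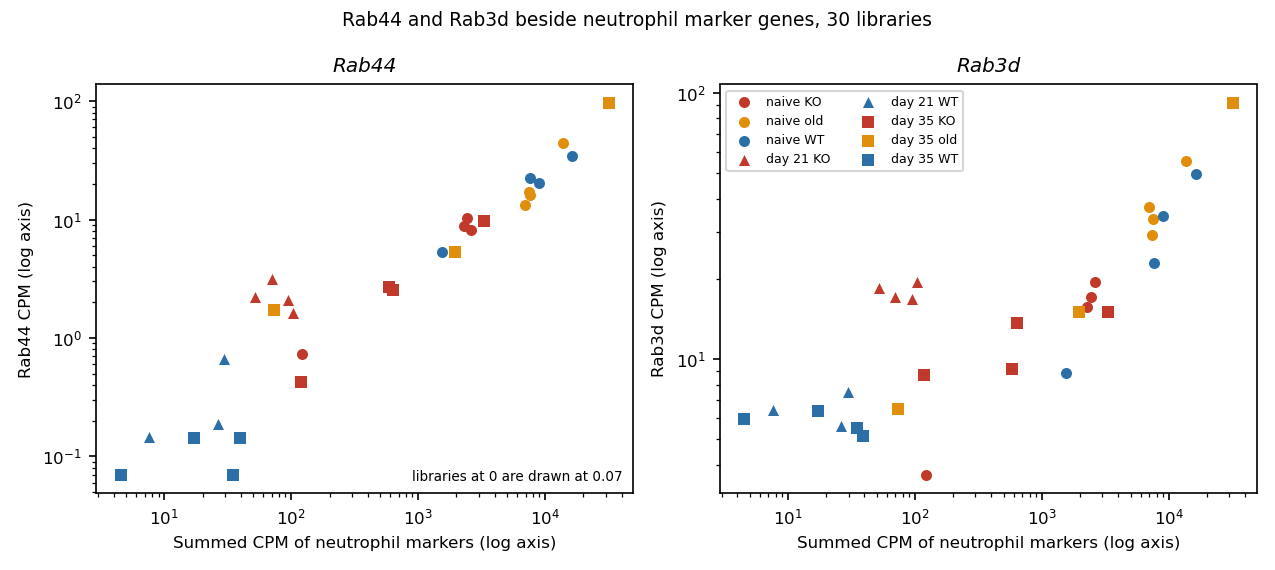
Level of Rab44 (left) and Rab3d (right) in CPM against the summed CPM of 13 neutrophil marker genes, both on log axes, with 1 point per library and the groups by colour and shape. Day 35 old library 1, at 31800 CPM of markers, has the highest level of both genes, and day 21 KO libraries lie above the other libraries with like marker sums in the Rab3d panel.

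The genes that load, carry and switch off Rabs were followed as 5 lists. Of the 8 genes of GDP dissociation inhibition, escort and prenylation, 3 fell (37.5%, where 12% of all genes fell) and 0 rose at day 21 in WT mice relative to naive WT. Gdi2, which extracts GDP-bound Rabs from membranes, fell by 0.41 (SE 0.134, adjusted p = 0.0274), and Rabac1, the prenylated Rab acceptor, by 0.91 (SE 0.23, adjusted p = 0.00569) on the log2 scale. Both also fell in day 21 KO mice (-0.61 and -1.12) and in day 35 old mice (-0.48 and -0.90) relative to their naive groups. In day 21 KO mice Rabggtb, a subunit of the enzyme that prenylates Rabs, rose by 0.58 (adjusted p = 0.000246, edgeR). Chml, a Rab escort protein, was lower in day 21 KO than in day 21 WT mice (log2FC -0.48, SE 0.128, adjusted p = 0.00904, edgeR). It was the 1 gene of these 8 called there, where 19% of all genes were called.

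Among 34 tested effectors, 9 rose and 3 fell at day 21 in WT mice, 11 rose and 6 fell at day 21 in KO mice, and 6 rose and 0 fell at day 35 in old mice, each relative to naive. The rises are 26.5%, 32.4% and 17.6% of the list, where 9.51%, 22.5% and 10.4% of all genes rose, and the falls 8.82%, 17.6% and 0%, where 12%, 22.7% and 8.03% of all genes fell. Fyco1, which links Rab7 vesicles to kinesin, rose by 0.70 in day 21 WT mice (SE 0.126, adjusted p = 0.000259). Plekhm2, a kinesin adaptor of lysosomes, rose by 0.73 (SE 0.128, adjusted p = 0.00019) in the same comparison. Between day 21 KO and day 21 WT 5 effectors were higher and 4 lower (14.7% and 11.8%, where 9.18% of all genes were higher and 9.86% lower). Rufy3 was higher (log2FC 0.71, SE 0.117, adjusted p = 0.000129), as was Wdr91, a Rab7 effector of endosome maturation (log2FC 0.61, SE 0.146, adjusted p = 0.00425). Mlph, which ties Rab27a to myosin, was lower (log2FC -0.72, SE 0.167, adjusted p = 0.00338), and so was Rilpl1 (log2FC -0.64, SE 0.153, adjusted p = 0.0041), all by edgeR. Wdr91 was higher at day 35 as well (log2FC 0.50, adjusted p = 0.0413, edgeR).

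Exchange factors moved both ways. Of 34 tested, 9 rose and 4 fell in day 21 WT mice and 11 rose and 9 fell in day 21 KO mice relative to naive. The rises are 26.5% and 32.4% of the list, where 9.51% and 22.5% of all genes rose, and the falls, 11.8% and 26.5%, are near the 12% and 22.7% of all genes. Between day 21 KO and day 21 WT 2 were higher and 4 lower (5.88% and 11.8%, where 9.18% of all genes were higher and 9.86% lower). Ric1, part of the exchange complex for Rab6, was higher in day 21 KO mice (log2FC 0.68, SE 0.154, adjusted p = 0.00252, edgeR), while Rin2, an exchange factor for Rab5, was lower (log2FC -0.55, SE 0.124, adjusted p = 0.00254, edgeR). Mon1b, of the complex that loads Rab7, fell by 0.45 in day 21 WT mice and by 0.71 in day 21 KO mice relative to naive on the log2 scale. Of 37 tested GTPase-activating proteins, 3 rose and 5 fell in day 21 WT mice and 4 rose and 9 fell in day 21 KO mice. The rises are 8.11% and 10.8% of the list, where 9.51% and 22.5% of all genes rose, and the falls, 13.5% and 24.3%, are near the shares of all genes. Evi5 fell in both (-0.47 and -0.75), and Tbc1d14 rose in both (0.31 and 0.47). Of the 9 subunits of the HOPS and CORVET tethers of endosomes and lysosomes, 1 rose in day 21 WT mice. It was Vps8 (log2FC 0.38, adjusted p = 0.00362, edgeR), in a comparison where 9.51% of all genes rose. In day 21 KO mice 3 rose and 2 fell (33.3% and 22.2%, where 22.5% of all genes rose and 22.7% fell). No gene of these 5 lists was called between naive KO and naive WT, where 0.288% of all genes were called.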

How the data were processed

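Expression was measured by total RNA sequencing of 30 libraries in 8 groups. The authors deposited unnormalised counts for 46078 Ensembl genes. Per the submitters' processing notes, CASAVA, bcl2fastq, STAR and build GRCm38 were used. The counting tool, and whether it used strand, is not given in the sources used here. Each library's EAE score and RNA integrity score (8.5 to 10) stand in a sample table the authors deposited. Of 32 count columns, 30 were tied to samples by their plate well, and 2 columns with no matching sample were not used. Gene symbols and exon lengths came from GENCODE M21 and matched 98.2% of genes. Genes without a symbol held 0.0552% of counts.

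Counts were normalised by TMM and tested with edgeR 4.0.16 (limma 3.58.1, R 4.3.3) in 1 quasi-likelihood fit of the 8 groups, with 22 residual degrees of freedom and 16 contrasts, after filterByExpr with a minimum count of 10 and a minimum total of 15. A gene was called at a Benjamini-Hochberg adjusted p under 0.05 over 13880 genes. SEs were derived from the log2 fold change and its F statistic. CPM values per library are counts scaled by the TMM library size of the tested genes. Members given per library were, for each contrast, called members with the lowest adjusted p, at most 8 in each direction, and the 6 with the highest level per kilobase; of each regulator list, at most 4 with the lowest adjusted p in a contrast were named. The members, lists and tests were chosen with earlier results of these data known. The steps were tested on simulated data. DESeq2 1.42.0, other size factors, no filter, the second index as a covariate, fits of only the groups compared, the other label of day 35 WT library 3 and leaving out each library were tried as alternatives. Depth limits the precision of low genes; intervals printed with count ratios cover counting error only.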

Additional observations from a re-analysis of the deposited data

Results flagged for a closer look

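In groups of 4 libraries, a library was singled out where its gap to the nearest other library, divided by the group's range, passed Dixon's 95% critical value of 0.829. This was met by 14 of 240 groups over the 40 members called in at least 1 comparison, and chance gives about 1 in 20. Of the 14, 4 were in naive KO library 4, the library with few neutrophil markers. There Rab3a had 9.68 CPM, Rab15 had 0.587 CPM, Rab18 had 28.6 CPM and Rab21 had 30.9 CPM. In EAE libraries of KO mice, Rab18 had 28.9 CPM and Rab35 had 76.1 CPM in day 21 KO library 2, and Rab28 had 18.9 CPM in day 35 KO library 4. In old naive mice, Rab20 had 26.0 CPM in library 1, Rab11b had 39.2 CPM and Rab32 had 62.0 CPM in library 2, and Rab44 had 44.2 CPM in library 4, the naive old library with most neutrophil markers. In WT mice, Rab6b had 84.4 CPM in naive library 3, Rab43 had 87.0 CPM in naive library 2 and Rab36 had 2.13 CPM in day 35 library 2.

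The change under EAE differed between genotypes, by edgeR's interaction terms, in 3 members. From naive to day 21 the difference, KO minus WT on the log2 scale, was -1.14 for Rab6b and 0.71 for Rab32. From day 21 to day 35 it was 0.90 for Rab6b and 1.50 for Rab34. The calls were 4.26% of the tested members each time, where 9.68% and 2.67% of all genes were called.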

How the results depend on the processing

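No called difference of a member changed sign under an alternative that gave a value for it; differences that were not called were not followed for their sign. The number of members called moved by over 1.5 times under these settings. A fit of only the groups compared called 12 members for day 21 KO against WT, 3 for day 35 KO against WT, 0 for day 35 old against WT, 0 for day 35 old against naive old, 8 for the genotype difference in the change to day 21 and 4 for that from day 21 to day 35. DESeq2 called 4 for day 35 KO against WT, 5 for naive old against WT, and 6, 2 and 4 for the genotype differences to day 21, to day 35 and between the days, and 1 for old against WT in the change to day 35. Without the filter 9 were called for day 35 WT and 9 for day 35 KO against naive, 1 for naive old against WT, 4 for day 35 old against WT, 12 for day 35 old against naive old and 0 for the genotype difference between the days, which had 1 with the second index as a covariate. With day 35 WT library 3 moved to KO, 0 were called for day 35 KO against WT and 4 for day 35 old against WT.

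Leaving out each library in turn gave 6 to 8 calls for day 21 KO against WT and 0 to 1 for day 35 KO against WT (0 without KO 3, WT 1 or WT 2). Against naive it gave 14 to 21 for day 21 WT (14 without day 21 WT 1 or 2, 15 without naive WT 2), 9 to 16 for day 35 WT (9 without naive WT 2 or day 35 WT 1), 21 to 23 for day 21 KO, 7 to 15 for day 35 KO (7 without day 35 KO 4, 10 without naive KO 2) and 4 to 19 for day 35 old (4 without day 35 old 3, 12 without naive old 2). It gave 6 to 9 for day 35 against day 21 KO (6 without day 35 KO 1 or 2), 1 to 4 for naive old against WT (1 without naive WT 1 or 4 or naive old 1 or 3) and 0 to 13 for day 35 old against WT (0 without old 1, 2 without WT 1 or 2, 4 without WT 4, 11 without old 2, 13 without old 3). For the differences in change it gave 2 to 4 (genotype, to day 21; 4 without naive WT 1), 0 to 0 (genotype, to day 35), 0 to 2 (genotype, between the days) and 0 to 2 (old). Naive KO against WT and day 35 against day 21 WT stayed at 0 to 0. The cause of these shifts was not tested. Libraries were not paired, because the labels give no replicate numbers. The second index, shared across groups, was used only as a covariate in an alternative fit. Most members averaging under 1 CPM per kb carry few counts, though Rab23 had 1662 over all libraries. Of the tested ones, Rab3c, Rab13, Rab15 and Rab36 were called in a comparison, and Rab19, Rab23 and Rab37 in none. What could be detected at this depth was not tested.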

Other observations

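The 12 members that were not tested averaged between 0.00455 and 0.537 CPM over the 30 libraries. They were Rab3b, Rab9b, Rab17, Rab25, Rab26, Rab27b, Rab30, Rab33a, Rab38, Rab39b, Rab40b and Rab42. Several of these are known from other tissues, such as Rab38 from melanocytes and Rab17 and Rab25 from epithelia. Rab17 had no count in 29 of 30 libraries.

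Of the 47 tested members, 40 (85.1%, against 68.1% of all genes) were called in at least 1 of the 16 comparisons and 7 in none, which were Rab4b, Rab9, Rab19, Rab23, Rab29, Rab37 and Rab40c.

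Rab promoters were rich in G and C. The median over 40 tested members with a promoter was 63.3% G and C and 24.5 CpG dinucleotides in 300 bases, against 52.8% and 7 over all 27025 genes. No other gene set of like expression was compared.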
